A study of Mus musculus with 3 samples.

Results

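The genes examined were the 9 that encode the regulators acting beside CCAAT boxes at mitotic promoters. They are the activators Mybl2 (B-Myb) and Foxm1, the 5 core subunits of MuvB (Lin9, Lin37, Lin52, Lin54 and Rbbp4) and the E2F dimer partners Tfdp1 and Tfdp2. They were chosen by name, with earlier results of these data known. All 9 were found among the 21938 protein-coding genes of GENCODE M21 on chromosomes 1 to 19, X and Y. Chromatin of mouse cortices at the E13.5 embryonic stage was sequenced in 3 libraries, namely input chromatin, NF-Y-ChIP with an antibody against the NF-YC subunit, and H3K4me3-ChIP. Each was prepared from whole cortex, in which progenitors and neurons are mixed, and the number of embryos behind a library is not given in the sources used here. The labels name no strain, allele or agent, and the input library was not analysed here.

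MuvB is a protein complex that switches cell cycle genes off or on according to its company. With an E2F-DP dimer and the pocket protein p107 or p130 it forms DREAM, which holds these genes silent in resting cells, and in S and G2 phase it joins B-Myb and then FoxM1 to activate mitotic genes. Its LIN54 subunit binds the cell cycle genes homology region (CHR) close to the start site, and mitotic promoters often carry CCAAT boxes, the binding site of the NF-Y trimer, upstream of the CHR. The cortex at this stage is rich in dividing neural progenitors, and H3K4me3 is a histone mark of active promoters.

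The question addressed here was whether the genes for these regulators carry NF-Y peaks themselves. A gene was called a target when a peak overlapped its body or the 5 kb upstream, the rule the study used. Each antibody was used in a single library, so replicate error could not be had and neither genes nor lists were tested against each other. The 95% interval beside a share is Wilson's and covers the number of genes only.

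NF-Y peaks lay at 2 of the 9 genes (22.2%, 6.32 to 54.7%), Foxm1 and Lin52, against 3.69% of all protein-coding genes, a share that rests on 2 genes. Among the stronger 50% of NF-Y peaks the count was 0 of 9, and the share of all protein-coding genes at that cut is not given here. The summit of either peak was at most 1 kb from a transcription start site (TSS) of the gene, as for 3.17% of all protein-coding genes. Among protein-coding genes with an H3K4me3 peak within 1 kb of a TSS, that share was 5.03%. An H3K4me3 peak was present at all 9 genes (100%, 70.1 to 100%), and 65.4% of protein-coding genes had one. Mybl2, Lin9, Lin37, Lin54, Rbbp4, Tfdp1 and Tfdp2 therefore had H3K4me3 but no called NF-Y peak. Read depth cannot be taken from the lists, and an NF-Y signal too weak to be called at these 7 genes was not detectable.

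The sequences at both NF-Y summits and at the comparable positions of other genes are shown first, because the positions of peaks and motifs refer to them. All were read from GRCm38, run 5′ to 3′ on the strand of the gene, and have CCAAT or its complement ATTGG in capitals. In the Foxm1 sequence the CHR, which follows the second CCAAT box directly, is in capitals too, and in the Tfdp1 sequence the capitals mark an E2F site. The printed stretch spans positions −55 to 2 for Foxm1 (chr6:128362912-128362969, plus strand), −390 to −150 for Lin52 (chr12:84451032-84451272, plus strand) and −100 to −1 for the others, where 0 is the first base of the gene and negative values are upstream. These are Tfdp2 (chr9:96196175-96196274, plus strand), Rbbp4 (chr4:129335371-129335470, minus strand), Tfdp1 (chr8:13338651-13338750, plus strand) and Ttk (chr9:83834589-83834688, plus strand). Ttk, a spindle checkpoint kinase gene with an NF-Y peak, is shown as a mitotic target of these regulators and was chosen after its values were seen.
Foxm1: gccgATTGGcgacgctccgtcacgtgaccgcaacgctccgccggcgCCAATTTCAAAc
Lin52: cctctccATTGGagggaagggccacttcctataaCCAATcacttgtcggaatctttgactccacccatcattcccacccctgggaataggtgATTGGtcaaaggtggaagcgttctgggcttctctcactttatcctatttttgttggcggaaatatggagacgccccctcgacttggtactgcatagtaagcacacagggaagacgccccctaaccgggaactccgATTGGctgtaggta
Tfdp2: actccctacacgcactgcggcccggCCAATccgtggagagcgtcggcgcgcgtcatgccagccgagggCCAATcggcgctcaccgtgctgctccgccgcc
Rbbp4: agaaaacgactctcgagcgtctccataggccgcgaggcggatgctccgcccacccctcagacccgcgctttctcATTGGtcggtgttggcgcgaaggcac
Tfdp1: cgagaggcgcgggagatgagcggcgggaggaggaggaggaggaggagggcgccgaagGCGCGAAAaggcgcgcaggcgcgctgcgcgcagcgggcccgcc
Ttk: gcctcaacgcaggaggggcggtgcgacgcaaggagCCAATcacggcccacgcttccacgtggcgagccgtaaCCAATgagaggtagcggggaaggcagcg

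Foxm1 encodes the forkhead activator that MuvB and B-Myb bring to G2 and M phase genes. The gene (ENSMUSG00000001517.14, chr6:128362967-128376146, plus strand) carried an NF-Y peak of 185 bp at its 5′ end, from position −144 to 40. The summit was at −23 and the fold enrichment over local background was 5.77, with a −log10 p-value of 10.1 and a −log10 q-value of 5.38. Among the 733 NF-Y peaks, 493 (67.3%) had a higher fold enrichment. The Foxm1 peak thus covered the start of the gene and was below the list's median fold of 6.75.

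The Foxm1 summit sat between a pair of CCAAT boxes, shown in the Foxm1 sequence. One lay on the opposite strand at −51 to −47 and the other on the strand of the gene at −9 to −5, with starts 42 bp apart and the nearer box 14 bp from the summit. A CCAAT box within 50 bp of the summit was found at 88.3% of NF-Y peaks, so its presence at Foxm1 and Lin52 is shared with most of the list. The CHR occupied −4 to 1 on the opposite strand, with 0 bases between it and the downstream CCAAT box. Foxm1 was the only one of the 9 genes with both CCAAT and CHR in the window from 250 bp upstream to 50 bp downstream of the 5′ end, a combination present in 7.99% of protein-coding promoters.

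Foxm1 shares this promoter with Rhno1, a DNA damage response gene transcribed the opposite way. The nearest Rhno1 start lies at −56, which leaves a gap of 55 bp, and both CCAAT boxes fall in it. The NF-Y summit was 23 bp upstream of the Foxm1 start and 33 bp upstream of the Rhno1 start, so which of these genes the peak belongs to cannot be told apart. The main H3K4me3 peak (46.6-fold, 2332 bp, from −1395 to 936) covered both starts, and its summit at −390 lay on the Rhno1 side. A second, weaker H3K4me3 peak of 4.23-fold lay farther upstream, from −1684 to −1448.

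Lin52 encodes the small MuvB subunit whose phosphorylation by DYRK1A favours DREAM over the B-Myb complex. The gene (ENSMUSG00000085793.2, chr12:84451422-84546145, plus strand) had an NF-Y peak of 319 bp from −452 to −134 with its summit at −306. Its fold enrichment was 4.86, with a −log10 p-value of 9.25 and a −log10 q-value of 4.61, and 608 of the 733 peaks (82.9%) were higher. The Lin52 peak was thus both weaker than that of Foxm1 and farther from the 5′ end of the named gene.

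The Lin52 peak held 4 CCAAT boxes, all in the printed sequence, starting at −383, −356, −298 and −163. Of these, 2 were within 50 bp of the summit, and the nearest was 8 bp away. Successive starts were 27, 58 and 135 bp apart, and neither a CHR nor an E2F site lay in the promoter window. The nearest annotated start was that of Aldh6a1, a mitochondrial enzyme gene for valine breakdown, which runs the opposite way from −418. The summit was 112 bp upstream of Aldh6a1 and 306 bp upstream of Lin52. As at Foxm1, the summit lay inside the gap between divergent genes, here 417 bp long, while the peak itself reached past the start of the neighbour, which here was the nearer gene. A single H3K4me3 peak of 60.5-fold spanned −1011 to 846 and covered the gap and both starts. The NF-Y peaks of Foxm1 and Lin52 both overlapped H3K4me3, as did 88.0% of all NF-Y peaks.

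**Figure D1:**
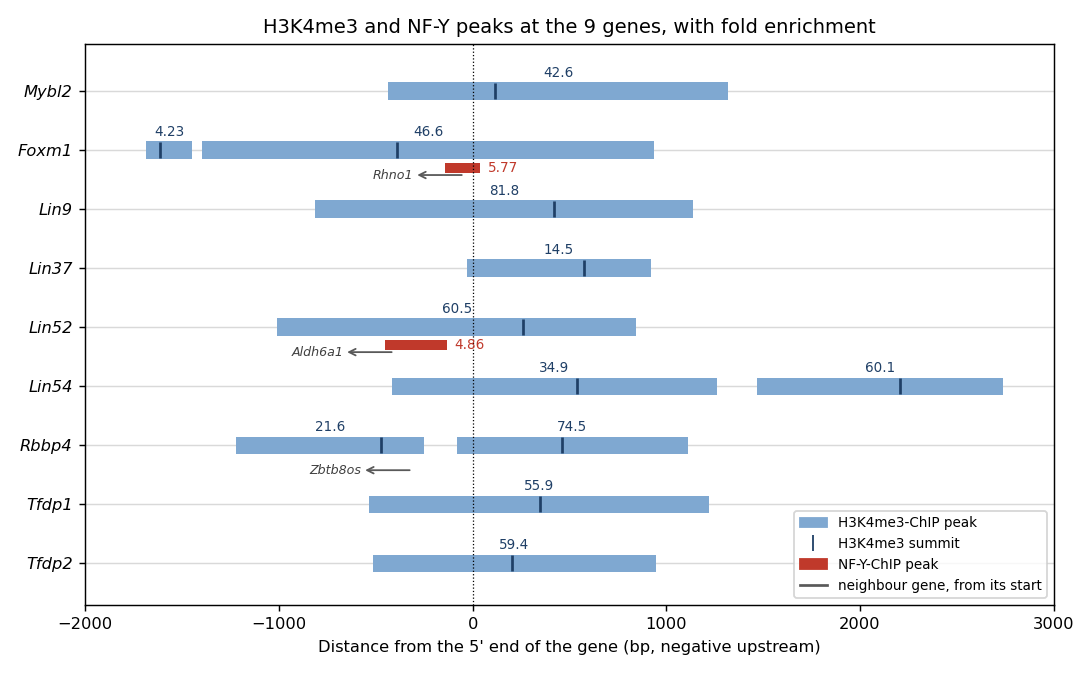
Peaks at the 9 genes, with distance from the 5′ end of the gene in bp on the x axis. Blue bars are H3K4me3-ChIP peaks with their summits as dark ticks, red bars are NF-Y-ChIP peaks, numbers are fold enrichments and arrows mark divergent neighbour genes. NF-Y peaks appear at Foxm1 (5.77) and Lin52 (4.86), both with the summit (−23 and −306) in the gap to a divergent gene. An H3K4me3 peak of Lin37 from −4282 to −2557 and one of Tfdp2 from 62879 to 64149 lie outside the range drawn.

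Mybl2 encodes B-Myb, which joins MuvB in S phase. No NF-Y peak lay in or near the gene (ENSMUSG00000017861.11, chr2:163054687-163084688, plus strand), and the nearest NF-Y summit was 1715 kb away, at Ube2c. H3K4me3 of 42.6-fold covered the start from −437 to 1319, with the summit at 115. None of the CCAAT, CHR or E2F words searched was in the promoter window, and the first CCAAT box within 1 kb began at 719. In the peak lists, then, the activators stood as Foxm1 with an NF-Y peak over a pair of CCAAT boxes and Mybl2 with neither, at H3K4me3 folds of 46.6 and 42.6.

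Among the other 4 core subunits of MuvB, Lin9, Lin37, Lin54 and Rbbp4, CCAAT was found in the promoter window of Rbbp4 alone. Rbbp4, a histone-binding protein that MuvB shares with several chromatin complexes, had an ATTGG at −26 to −22 but no NF-Y peak. Its gene (ENSMUSG00000057236.10, chr4:129307100-129335370, minus strand) starts 325 bp from the divergent gene Zbtb8os, a layout like that of Foxm1 and Lin52. H3K4me3 was strong over the Rbbp4 start, at 74.5-fold from −81 to 1111, and a separate peak of 21.6-fold from −1222 to −249 had Zbtb8os as its nearest start. The nearest NF-Y summit was 681 kb away. A divergent partner, H3K4me3 and a single CCAAT box near the start were therefore present at Rbbp4 without a called peak.

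Lin9, the scaffold subunit that contacts B-Myb, had the highest H3K4me3 of the 9 genes. The peak at its start (ENSMUSG00000058729.13, chr1:180641150-180690694, plus strand) was 81.8-fold, spanned −813 to 1138 and ranked 67 of 18816 peaks. No CCAAT box was found within 1000 bp of the 5′ end, and the nearest NF-Y summit was 263 kb away.

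Lin54, the DNA-binding subunit that reads the CHR, had a pair of H3K4me3 peaks that followed its alternative starts. In this gene (ENSMUSG00000035310.15, chr5:100441918-100500639, minus strand) the stronger peak (60.1-fold) lay inside the gene, from 1467 to 2739, over 6 transcript starts between 2006 and 2116. The peak at the annotated 5′ end (34.9-fold, −416 to 1262) covered 3 starts between 0 and 47, and it also holds the miRNA gene Gm23222 at 421. A CHR was present at 40 to 45, within the window at the annotated 5′ end, but no CCAAT. The stronger H3K4me3 peak inside the gene held 3 CCAAT boxes. The nearest NF-Y summit was 1248 kb away.

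Lin37, the subunit needed for repression by DREAM, had the weakest H3K4me3 of the 9 genes. The peak at its start (ENSMUSG00000036845.12, chr7:30555441-30559838, minus strand) was 14.5-fold and spanned −30 to 923. A stronger peak of 45.1-fold upstream, from −4282 to −2557, lay 86 bp from a start of Psenen and met the target rule for Lin37 only because the rule reaches 5 kb. A CHR overlapped the Lin37 start at −5 to 0, and a pair of CCAAT boxes began at 95 and 114, downstream of the window. The nearest NF-Y summit, of 6.93-fold, was 7.42 kb downstream of the 5′ end, outside the gene and closest to Hspb6.

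Tfdp1 and Tfdp2 encode DP1 and DP2, which pair with E2F proteins to bind DNA. Tfdp2 (ENSMUSG00000032411.15, chr9:96196275-96323646, plus strand) had CCAAT boxes at −75 and −32, both on the strand of the gene and 43 bp apart. The spacing was 42 bp at Foxm1 and 37 bp at Ttk, as the printed sequences show, yet Tfdp2 had no NF-Y peak and its nearest summit was 474 kb away. H3K4me3 at its start was 59.4-fold from −515 to 945 over 6 transcript starts, and a second peak of 18.2-fold at 62879 to 64149 covered 2 internal starts. Tfdp1 (ENSMUSG00000038482.11, chr8:13338751-13378448, plus strand) had no CCAAT within 1000 bp. It was the 1 gene of the 9 with an E2F site in the window, at −43 to −36 on the opposite strand, and such a site was found in 2.79% of protein-coding promoters. H3K4me3 at Tfdp1 was 55.9-fold from −533 to 1222, and the nearest NF-Y summit was 339 kb away.

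**Figure D2:**
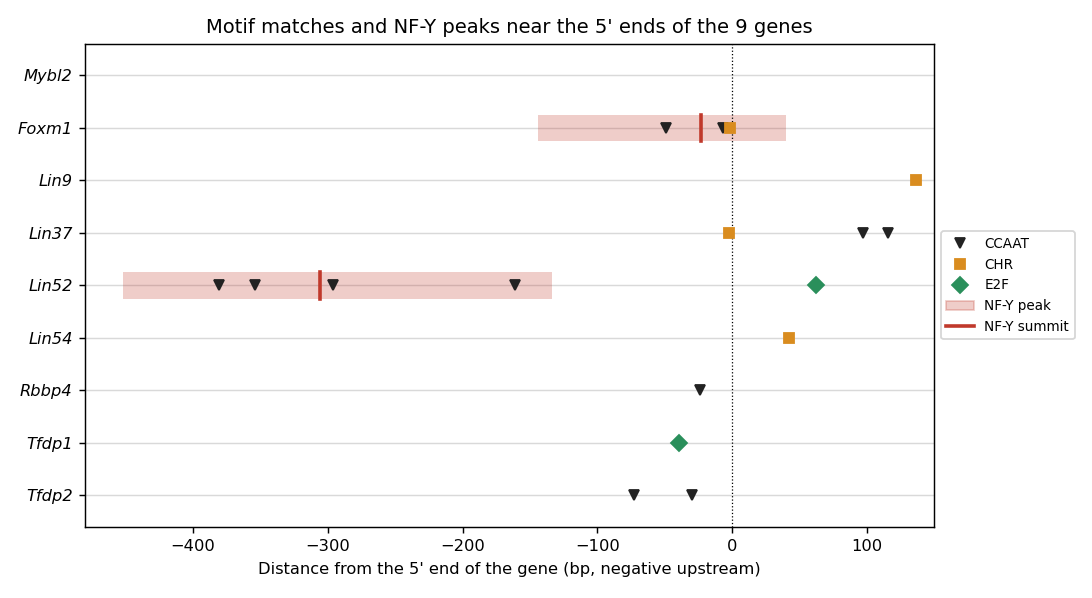
CCAAT boxes (triangles), CHR (squares) and E2F sites (diamonds) near the 5′ ends of the 9 genes, with distance from the 5′ end in bp on the x axis. Shaded bars are NF-Y peaks and red lines their summits. The pair of boxes at Foxm1 flanks the summit at −23, the Tfdp2 pair at −75 and −32 has no peak, and no mark is drawn for Mybl2.

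Over the set, CCAAT was in the promoter window of 4 of the 9 genes (44.4%, 18.9 to 73.3%), namely Foxm1, Lin52, Rbbp4 and Tfdp2, against 39.0% of protein-coding genes. Foxm1 and Tfdp2 had 2 boxes each (22.2%, 6.32 to 54.7%), and 12.7% of all genes had at least 2. Both background shares lie inside these intervals. The first count depends on the start chosen, since with a window at every transcript start CCAAT was found in 9 of 9 genes, against 61.8% of protein-coding genes. The 9 genes have a median of 7 annotated starts (4 to 15), against 3 over all protein-coding genes, so more of their sequence was searched. CHR was present in 3 of 9 windows (Foxm1, Lin37 and Lin54; 33.3%, 12.1 to 64.6%), against 18.0% of all.

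Among protein-coding genes with H3K4me3 within 1 kb of a TSS, an NF-Y summit within 1 kb was found at 10.6% of those with CCAAT in the window, 21.6% of those with at least 2 boxes and 1.58% of those without. Of the 9 genes, 2 of the 4 with CCAAT had one (95% interval 15.0 to 85.0%). With at least 2 boxes it was 1 of 2, Foxm1 and not Tfdp2, and without CCAAT it was 0 of 5, which allows a share of up to 43.4%. Lin52 counts here with the 1 box in its window, while its boxes at −383, −356 and −298 lie upstream of the window. The presence of CCAAT in the window thus did not settle whether one of these genes had a peak.

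H3K4me3 at the start sites of the 9 genes had a median of 59.4-fold, with Lin9 (81.8), Rbbp4 (74.5), Lin52 (60.5), Lin54 (60.1), Tfdp2 (59.4), Tfdp1 (55.9), Foxm1 (46.6), Mybl2 (42.6) and Lin37 (14.5) in descending order. The median of all 13767 marked protein-coding genes was 39.9. Each value is the strongest peak within 1 kb of any start of the gene, and the 9 genes have more annotated starts (a median of 7 against 3 over all protein-coding genes), whose part in these values was not tested. In that distribution Lin9 was at percentile 99.4, Rbbp4 at 97.3, Lin52 at 85.8, Lin54 at 85.2 and Tfdp2 at 84.6. Tfdp1 was at 79.9, Foxm1 at 63.4, Mybl2 at 55.3 and Lin37 at 11.2. For Lin54 the value is that of the peak inside the gene. Lin52 was the third and Foxm1 the seventh of the 9, so the genes with NF-Y peaks were not those with the highest H3K4me3. How far neighbours in this order differ beyond error cannot be stated from 1 library.

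**Figure D3:**
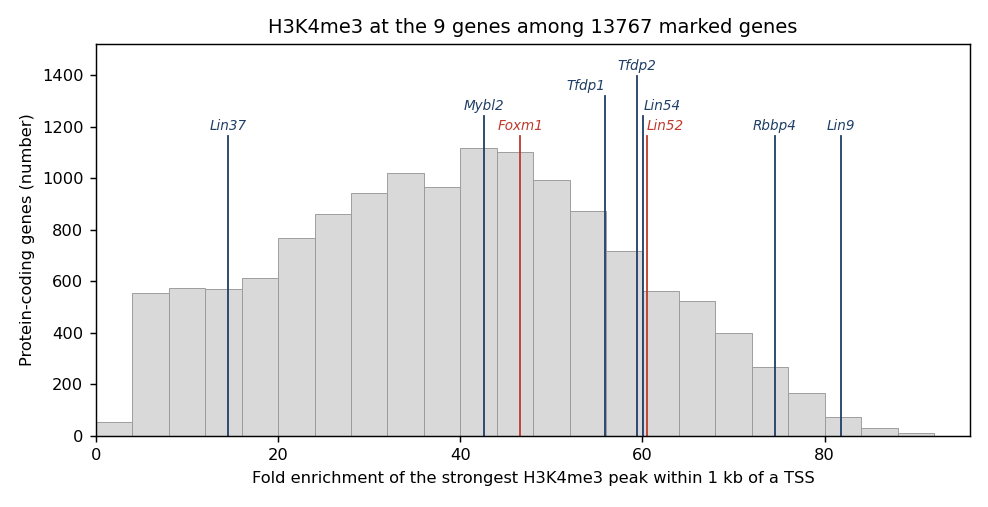
Histogram of the strongest H3K4me3 fold enrichment within 1 kb of a TSS (x axis, bins of 4) over 13767 marked protein-coding genes (y axis, number of genes), with a line for each of the 9 regulators. Red lines are the genes with an NF-Y peak, Foxm1 at 46.6 and Lin52 at 60.5. Lin37 at 14.5 is the lowest and Lin9 at 81.8 the highest.

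Proteins that work with these regulators were examined by the same rule. Of 12 partner genes, the DREAM pocket proteins and E2Fs (Rbl1, Rbl2, E2f4, E2f5), the kinases Dyrk1a and Cdk2, the Myb relatives Mybl1 and Myb, the Rbbp4 paralog Rbbp7 and the NF-Y subunits, 3 had an NF-Y peak (95% interval 8.89 to 53.2%). Rbbp7 had a 6.50-fold peak with its summit at −54 and 2 CCAAT boxes within 50 bp. The paralogs therefore differed in the lists, since Rbbp4 with its 1 box had none. Nfyc, the subunit targeted by the ChIP antibody, had the strongest of the 3 at 13.1-fold, 427 bp downstream of its nearest start. Nfya, the subunit that recognises the CCAAT sequence, had a 4.74-fold peak 42 bp downstream of a start, with 3 CCAAT boxes near the summit, while Nfyb had none.

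The mitotic genes that B-Myb, FoxM1 and MuvB activate had NF-Y peaks in 9 of 32 cases (28.1%, 15.6 to 45.4%), against 3.69% of all protein-coding genes. In descending order of fold the 9 were Hmmr (28.3), Top2a (24.2), Cdc25c (15.7), Ttk (15.0), Ube2c (8.20), Mki67 (8.02), Aurka (7.63), Ect2 (5.50) and Cenpf (4.95). Mki67 is a marker of proliferation, and the others act in the spindle, chromosome decatenation, mitotic entry and exit, and cytokinesis. The median fold of the 9 was 8.20. The Foxm1 peak (5.77) was weaker than 7 of the 9, and the Lin52 peak (4.86) was weaker than all 9. Of the strong ones, the Hmmr summit lay closest to the start of Nudcd2 and that of Cdc25c closest to 2010110K18Rik. The 20 G1/S genes of the DREAM and E2F programme had 3 peaks (15.0%, 5.24 to 36.0%, against the same 3.69%), at the replication genes Mcm5 (9.69), Cdc45 (7.41) and Mcm3 (5.56). These lists, like that of the partners, were chosen with earlier results of these data known.

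The mitotic list was searched for the same motifs, and its shares were not tested against those of the 9 regulators. CCAAT was in the window of 27 of 32 mitotic genes (84.4%, 68.2 to 93.1%), at least 2 boxes in 18 of 32 (56.2%, 39.3 to 71.8%) and CHR in 20 of 32 (62.5%, 45.3 to 77.1%), and all 20 of those also had CCAAT. Of the 18 with at least 2 boxes, 9 had an NF-Y summit within 1 kb, and of the 5 without CCAAT, 0 did. E2F sites were found in 8 of 20 G1/S windows (95% interval 21.9 to 61.3%), in 1 of 32 mitotic windows and in 1 of the 9 regulators. These lists were drawn from genes known as targets, so their motif shares are a description. Spacing between neighbouring CCAAT starts had a median of 33.0 bp (3 to 136 bp, 37 spacings in 18 mitotic genes), and 8 were from 31 to 34 bp. Foxm1 (42 bp) and Tfdp2 (43 bp) were above that median. The gap between CHR and the nearest CCAAT had a median of 23.0 bases in the 20 mitotic genes (4 to 69), with CCAAT on the upstream side in 17, and the gap of 0 at Foxm1 was below their range.

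**Figure D4:**
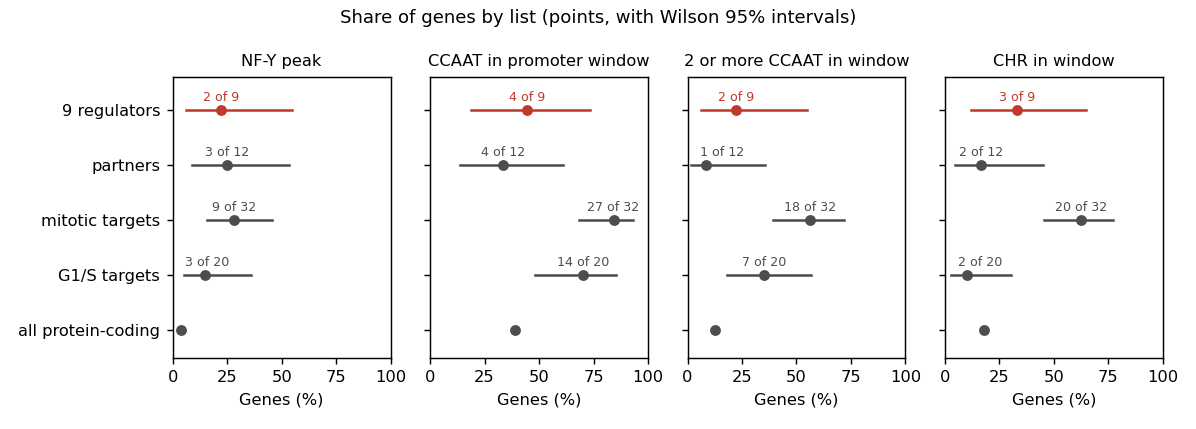
Share of genes in percent (x axis) with an NF-Y peak, CCAAT, at least 2 CCAAT boxes or CHR, for the 9 regulators (red), 12 partners, 32 mitotic targets, 20 G1/S targets and all 21938 protein-coding genes. Points are shares and bars Wilson 95% intervals; the bar of all genes is narrower than its point. For NF-Y peaks the interval of the 9 regulators (6.32 to 54.7%) contains the share of each of the 3 lists.

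For the libraries as a whole, the NF-Y list held 733 peaks with a median fold of 6.75 (1.46 to 53.1) and a median width of 224 bp, and the H3K4me3 list 18816 peaks with 27.5-fold (2.11 to 91.4) and 1098 bp. H3K4me3 within 1 kb of a TSS was present at 6 of 6 cortical markers (4.61 to 41.7-fold), among them Emx1, Emx2 and Pax6. It was also present at 2 of 12 markers of other cell types, the endothelial gene Cldn5 (9.38) and the collagen gene Col1a1 (4.76). The other 10, among them the endothelial gene Pecam1 and blood, muscle, liver and microglial genes, had none. The part of other cell types in the values of the 9 genes was not tested.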

How the data were processed

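Input chromatin, NF-Y (through NF-YC) and H3K4me3 were each sequenced once from E13.5 cortices. The authors aligned reads to mm10 (GRCm38) with Bowtie2 2.2.8 and called peaks with MACS2 2.1.2 (versions from the submitters' processing notes), at p < 0.001 for NF-Y and q < 0.05 for H3K4me3. The study used the input as the negative control of the ChIP, and whether MACS2 was run against it is not given in the sources used here. The deposited lists give for each peak a fold enrichment (ratio over local background), −log10 p-value, −log10 q-value and a score of 10 times one of these. The NF-Y list was identified by its score following the p-value and the H3K4me3 list by its score following the q-value. Values were used as deposited, and the H3K4me3 list used here is shorter than the one the study describes. Without read counts in them, the depth is unknown.

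Peaks were assigned by overlap of at least 1 bp with the gene or the 5 kb upstream (GENCODE M21), and each transcript 5′ end was a TSS. Motifs were searched on both strands of GRCm38 from 250 bp upstream to 50 bp downstream of the 5′ end of the gene. CCAAT was CCAAT or ATTGG, CHR was TTTGAA or TTCGAA, and E2F was TTTCCCGC, TTTCGCGC, TTTGCCGC or TTTGGCGC. A match is a description, not a site shown to be bound. The CHR, E2F and spacing searches were added after the peak lists were seen. The members and lists were chosen with earlier results of these data known. Named were the 9 genes, genes of the other lists with an NF-Y peak, and genes whose TSS lay within 1 kb of a member's NF-Y summit or 5′ end. The other partner genes were named as members of their list, and cortical and other markers for the tissue check. Psenen, Hspb6, Nudcd2 and 2010110K18Rik were named as the nearest starts of peaks, and Nfyb and Ttk (as a sequence) were added, after values were seen. One further marker of the tissue check is not reported here. Alternatives covered peak thresholds, overlap, distances, TSS sets and motif windows. The assignment and the motif search were tested on simulated data, with 1000 of 1000 and 600 of 600 right. Python 3.11.15, pandas 2.3.3, SciPy 1.17.1, pysam 0.24.0, samtools 1.23.1 and matplotlib 3.10.9 were used.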

Additional observations from a re-analysis of the deposited data

How the results depend on the processing

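Of 38 alternative values, 35 kept the count within 1.5 times of the main one or left the distance as it was. With the stronger 50% of NF-Y peaks the members with an NF-Y peak fell from 2 to 0 and the partner genes from 3 to 1, because Foxm1, Lin52, Rbbp7 and Nfya lie below the median fold, while mitotic targets went from 9 to 7 and G1/S targets from 3 to 2. For that cut the share of all protein-coding genes is not given here. With the promoter window placed at any transcript 5′ end, members with CCAAT rose from 4 to 9, and the share of all protein-coding genes from 39.0% to 61.8%. More sequence was searched with that setting, and its part in the rise was not tested. Lin37 kept a peak among the stronger 50% of H3K4me3 peaks through the 45.1-fold peak next to Psenen alone. No paired analysis was possible because each antibody has 1 library and no result comes from a test. Peak lists without read counts or replicates limit how a weak peak, or the lack of one, can be read.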
